A study of Mus musculus with 8 samples.

Results

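The CpGs of mouse chromosome 8 were examined in oxRRBS libraries of neural precursor cells (NPCs), because the coverage of this chromosome shifted between the replicates of the control cells. All CpGs listed on chromosome 8 in the 8 libraries were taken, 46008 of 757812 CpGs in all (6.07%), and 37678 of the 612975 CpGs that had 10 or more calls per library were on this chromosome. Chromosome 8 was chosen by its coverage, which is the number of calls at a CpG, so the coverage values are a description and were not tested. The methylation levels were not used for the choice, and these were tested.

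The NPCs came from A2lox.cre, a mouse ES cell line into which an shRNA cassette can be inserted at a fixed locus under doxycycline control. Cells of both groups received doxycycline at 2 µg/ml for 5 days and differed in the shRNA, which was either a non-targeting control (Scrambled, shScr) or directed against *Tet3* (shTet3). The labels name the second shRNA by its target alone. Each shRNA had 2 replicates, and the DNA of each of these 4 samples was split between library kinds. Bisulphite conversion (BS) leaves 5mC together with 5hmC as C, whereas prior oxidation (oxBS) leaves only 5mC as C. Nothing says that replicates came from separate cultures or clones, so the spread between these samples may be technical. The exact permutation tests and F tests measure this spread. The likelihood ratio test of single CpGs pools the calls of both replicates, so its *q* values do not measure it. RNA was not analysed here, so that neither the knockdown nor the markers of NPCs could be checked. Reads were copied by PCR without molecular identifiers, so intervals and limits from counts cover counting error only.

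TET enzymes, of which TET3 is one, oxidise 5mC to 5hmC, a step of active DNA demethylation. In RRBS, DNA is cut by MspI at CCGG sites and short fragments are sequenced, so that CpG-rich promoters are covered most densely. The number of reads from a chromosome depends on how much of its DNA is in the sample, and also on base composition, fragment length and amplification. Chromosome 8 carries neural genes such as *Tubb3*, the pluripotency gene *Zfp42* (Rex1) and the *Irx* homeobox cluster, and its gain is a known event in cultured mouse ES cells. The karyotype of these cells was not tested.

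The 6 CpGs of chromosome 8 with the largest difference in 5mC between shTet3 and shScr, 3 in each direction among those where the replicates of the groups did not overlap, are shown here because their calls are the most direct view of the data. Each lies in the middle of 62 bases of the forward strand of build mm9, the called CpG in capitals.
Intergenic, nearest gene *Aga*, chr8:54216751-54216812: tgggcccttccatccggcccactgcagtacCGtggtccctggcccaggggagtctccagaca
Coding exon of *Arhgef10*, chr8:14964078-14964139: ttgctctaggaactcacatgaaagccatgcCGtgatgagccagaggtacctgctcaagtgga
Intergenic, nearest gene *Hand2*, chr8:59826050-59826111: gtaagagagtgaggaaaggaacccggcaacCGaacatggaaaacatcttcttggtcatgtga
Intron of *Mcph1* and of *Angpt2*, chr8:18739105-18739166: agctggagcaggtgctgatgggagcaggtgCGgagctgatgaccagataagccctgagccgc
Intron of *Pkd1l2*, chr8:119581216-119581277: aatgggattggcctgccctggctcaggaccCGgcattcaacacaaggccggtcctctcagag
Intergenic, nearest gene *Wrn*, chr8:33994261-33994322: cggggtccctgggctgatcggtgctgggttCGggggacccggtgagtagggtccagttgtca

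The libraries held 42516767 to 61865967 calls, with a median coverage per CpG of 43 to 54. Both libraries of shScr replicate 1 stood apart from the other 6 on chromosome 8, and the values of 5mC, DMPs, promoters and gene lists are therefore also given without this replicate. Chromosome X, present once in male cells, lay 0.56 to 0.86 below the autosomes on the log2 scale of coverage.

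Chromosome 8 was covered more deeply than the other autosomes in both libraries of shScr replicate 1, and to within 1 call of them in the other 6 libraries. In BS, the median coverage of its CpGs was 54 in shScr replicate 1 against 46 on the other autosomes, and 53 against 52 in replicate 2. In oxBS it was 51 against 43 in shScr replicate 1 and 48 against 47 in replicate 2. In the shTet3 BS libraries it was 45 against 44 and 46 against 47, and in the shTet3 oxBS libraries 55 against 54 and 50 against 49. The same order was seen in the share of autosomal calls that fell on chromosome 8. This share was 6.92% and 6.97% in the BS and oxBS libraries of shScr replicate 1, 6.12% and 6.14% in those of shScr replicate 2, and between 5.87% and 5.99% in the 4 shTet3 libraries. The 95% Wilson intervals of these shares reached at most 0.0075 percentage points to either side. They treat calls as independent, although a read can hold several CpGs, and do not measure the spread between libraries. Of the listed autosomal CpGs, 6.19% are on chromosome 8.

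Coverage was then divided by the median of its library, set on a log2 scale and averaged in windows of 1 Mb with at least 5 CpGs. The median window of chromosome 8 exceeded the median of the other 18 autosomes by 0.21 in BS and by 0.20 in oxBS of shScr replicate 1, which is 15.4% and 15.1% more coverage. Chromosome 8 ranked highest of the 19 autosomes in these libraries. In shScr replicate 2 the difference was −0.0060 in BS and 0.024 in oxBS. In shTet3 it was 0.021 and −0.019 in the BS libraries and −0.016 and −0.0049 in the oxBS libraries, with chromosome 8 ranking between 7 and 14. In the 4 shTet3 libraries the highest autosome was chromosome 11. The plot of coverage by library shows this separation.

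**Figure D1:**
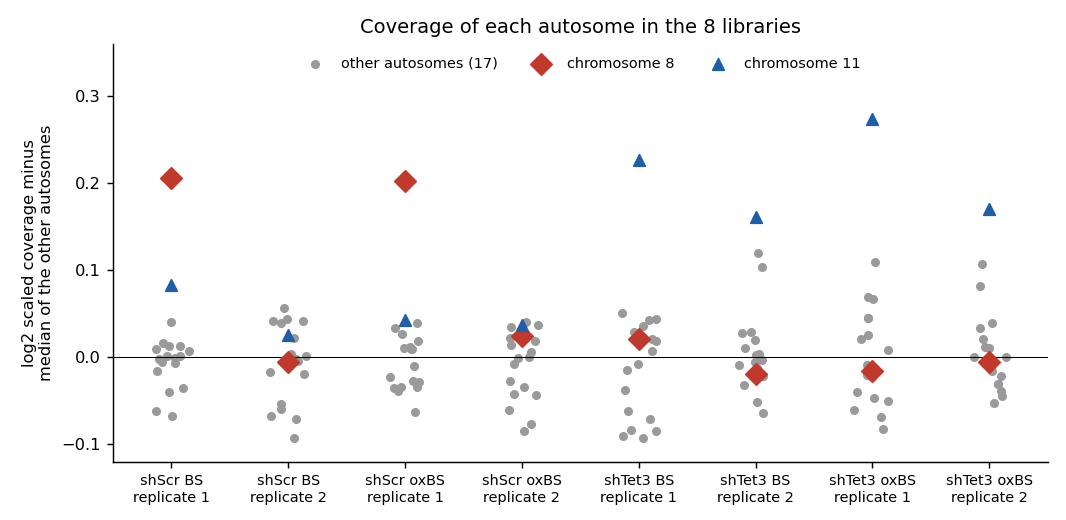
Coverage of each autosome (y axis: median over 1 Mb windows of the log2 coverage scaled by the library median, minus the median of the autosomes other than chromosome 8) in the 8 libraries (x axis). Chromosome 8 (red) sits at 0.21 and 0.20 in the BS and oxBS libraries of shScr replicate 1 and between −0.019 and 0.024 in the other 6 libraries, while chromosome 11 (blue) is highest in each shTet3 library.

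Between the shScr replicates, chromosome 8 was lower in replicate 2 than in replicate 1 by 0.20 in BS and by 0.17 in oxBS on the log2 scale. The mean shift was −0.18 ± 0.020 (SD, n = 2 library kinds of the same DNA). The other autosomes ranged from −0.054 on chromosome 6 to 0.072 on chromosome 16. Relative to their median, the shift of chromosome 8 was −0.19, so that replicate 1 was 13.7% higher, and it was the lowest of the 19 autosomes. In shTet3 the shift was −0.0026 in BS and 0.11 in oxBS, with a mean of 0.053 ± 0.079 (SD, n = 2 library kinds). There the other autosomes ranged from −0.017 on chromosome 11 to 0.18 on chromosome 14, and chromosome 8 was 8th from the lowest, 0.024 below their median. The size of the shScr shift moved with the way coverage was summarised, as far as −0.38 when libraries were scaled by total calls. Taken relative to the other autosomes it stayed between −0.17 and −0.21 in 5 alternatives of coverage minimum, unit and highest coverage, with chromosome 8 lowest in each, and it was −0.16 within bins of GC content. A scaling of whole libraries cancels in that relative value.

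**Figure D2:**
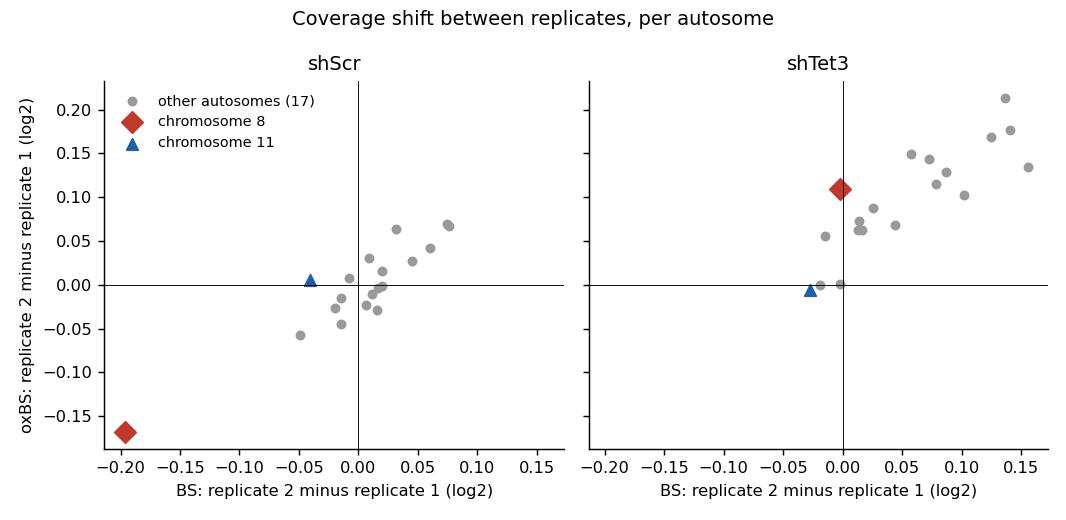
Shift of log2 coverage from replicate 1 to replicate 2 for each autosome, in BS libraries (x axis) and oxBS libraries (y axis), for shScr (left) and shTet3 (right). Chromosome 8 (red) lies at −0.20 and −0.17 in shScr, away from the other autosomes, and within their range in shTet3, at −0.0026 and 0.11.

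The shift was spread along the chromosome. Of 128 windows, 100 (78.1%) were lower in shScr replicate 2, against 48.7% of the 2265 windows of the other autosomes. In 84 windows (65.6%) both BS and oxBS were lower, against 38.6% of the other windows. In shTet3, 39 windows (30.5%) were lower in replicate 2, against 33.0% elsewhere. Across the 128 windows, BS and oxBS shifts of the same DNA had Pearson's r = 0.79 in shScr and 0.61 in shTet3, whereas the shifts of shScr and shTet3 had r = −0.097. Windows are neighbours on 1 chromosome and BS and oxBS share their DNA and base composition, so these correlations are descriptions.

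The shScr windows at the ends of the range held 13 to 96 CpGs. The 3 lowest in shScr were chr8:5000001-6000000 at −1.35 (13 CpGs), which holds the bile acid transporter gene *Slc10a2*, chr8:58000001-59000000 at −0.85 (27 CpGs), with the glycine receptor gene *Glra3* and the prostaglandin-degrading enzyme gene *Hpgd*, and chr8:54000001-55000000 at −0.82 (19 CpGs), with the lysosomal enzyme gene *Aga* and the DNA glycosylase gene *Neil3*. The 3 highest in shScr went against the chromosome. They were chr8:20000001-21000000 at 0.75 (35 CpGs), without a protein-coding gene in the annotation, chr8:55000001-56000000 at 0.69 (48 CpGs), with the lymphatic growth factor gene *Vegfc*, and chr8:60000001-61000000 at 0.51 (96 CpGs), with *Galnt7*, which codes for a glycosyltransferase.
In shTet3 the 3 lowest windows were chr8:15000001-16000000 at −0.26 (202 CpGs, with *Csmd1* and *Arhgef10*), chr8:66000001-67000000 at −0.24 (58 CpGs, with the protease gene *Tll1*) and chr8:123000001-124000000 at −0.24 (1266 CpGs, with the transcription factor genes *Irf8*, *Foxf1a* and *Foxc2*). The 3 highest were chr8:104000001-105000000 at 0.87 (9 CpGs), chr8:78000001-79000000 at 0.87 (41 CpGs) and chr8:7000001-8000000 at 0.80 (12 CpGs). None of these extreme windows was shared between shScr and shTet3.

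Base composition moved with the coverage shift. Across the windows of chromosome 8 the shift had r = 0.61 with GC content in shScr and r = −0.57 in shTet3. On the other autosomes, the median BS shift in shScr ran from −0.27 at CpGs with less than 45% GC in the surrounding 200 bases to 0.54 at CpGs with 70% or more. Chromosome 8 was therefore compared with the other autosomes within bins of GC content. In shScr it was lower in each of the 7 bins, by 0.28 at under 45% GC, by 0.20 at 55 to 60% and by 0.082 at 70% and over (means of BS and oxBS). In shTet3 the same differences were −0.11, −0.0049 and 0.030.

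**Figure D3:**
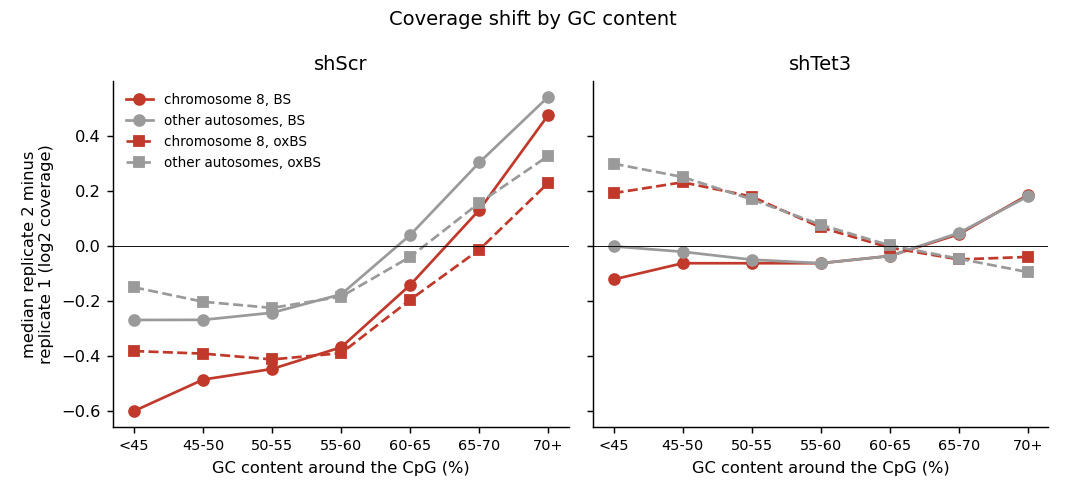
Median shift of log2 coverage from replicate 1 to replicate 2 (y axis) by GC content of the 200 bases around a CpG (x axis), for shScr (left) and shTet3 (right), BS (solid lines) and oxBS (dashed lines). In shScr the chromosome 8 lines (red) run below those of the other autosomes (grey) in all 7 bins, by 0.28 in the lowest and 0.082 in the highest, and in shTet3 the lines lie close to each other from 50% GC upwards.

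The shScr difference from the other autosomes was also present in each class of CpG. It was −0.12 in promoters (17778 CpGs of chromosome 8), −0.19 in genes outside promoters (13825 CpGs) and −0.14 between genes (6075 CpGs). By methylation it was −0.13 at CpGs under 10%, −0.16 at 10 to 60% and −0.22 at 60% and over. By length of the MspI fragment it was −0.15 under 75 bases, −0.16 at 75 to 150 bases and −0.15 above that. In shTet3 the differences in these 9 classes lay between −0.015 and 0.032.

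After each CpG was set against the other autosomes in its own GC bin of 5 percentage points, chromosome 8 had a median shift of −0.15 in BS and −0.16 in oxBS between the shScr replicates. The medians of the other autosomes, averaged over BS and oxBS, lay between −0.041 on chromosome 11 and 0.064 on chromosome 17. Of the 128 windows, 112 (87.5%) were negative in shScr, against 56.1% of the other windows and 44.7% to 68.9% on single autosomes. All 12 segments of 10 Mb with at least 500 CpGs were negative in both BS and oxBS, with means from −0.22 to −0.073. Of 234 such segments on the other autosomes, 37 were at or below −0.073. In shTet3, 43 windows (33.6%, against 39.7% elsewhere) and 3 of 12 segments were negative, with a median of 0.0049 for the chromosome.

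**Figure D4:**
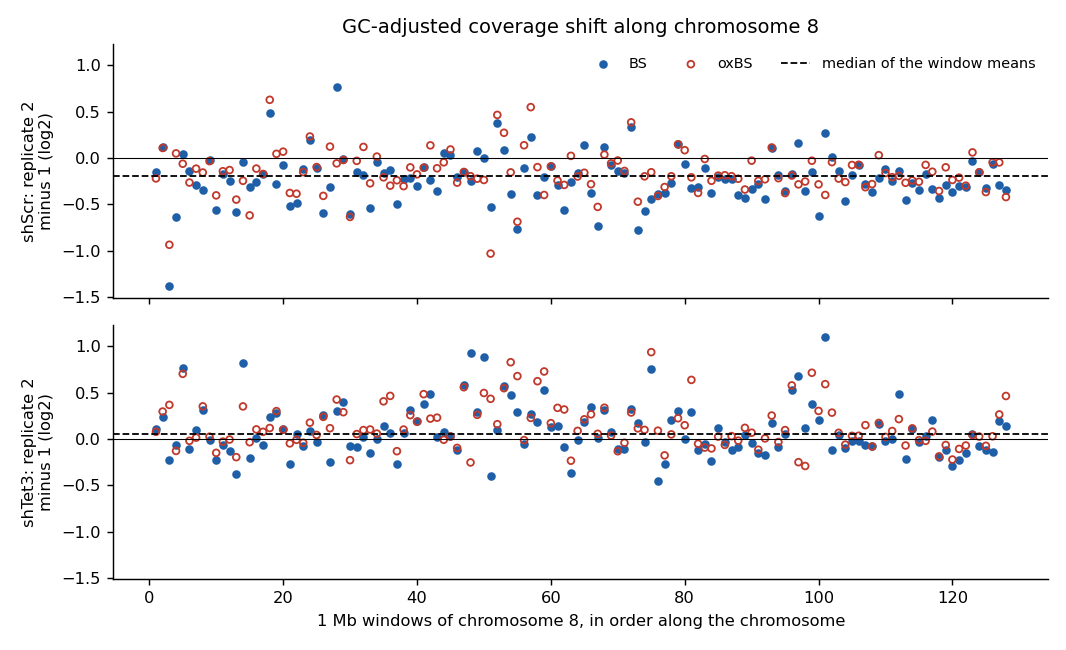
GC-adjusted shift of log2 coverage from replicate 1 to replicate 2 (y axis) in the 128 windows of 1 Mb in their order along chromosome 8 (x axis), BS in blue and oxBS in red, shScr above and shTet3 below. The dashed line marks the median of the window means, −0.19 in shScr and 0.056 in shTet3, and points below 0 are spread over the whole length of the chromosome in shScr.

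The 4 DNA samples were then compared in all pairs, within BS and within oxBS and with the same GC adjustment. In the 6 pairs with shScr replicate 1, chromosome 8 was 1.11 to 1.17 times higher in that sample, and it lay farther from 0 than every other autosome in 6 of 6 pairs. In the 6 pairs without shScr replicate 1, the ratios lay between 0.992 and 1.04, and chromosome 8 was the farthest autosome in none. The ratio of shScr replicate 2 to the shTet3 replicates was 1.03 in both BS pairs and 1.04 in both oxBS pairs. The pairs share samples and are not independent of each other. The cause of the difference was not tested.

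The 5mC of chromosome 8 was lower after *Tet3* knockdown in both replicates, as on the other autosomes. Mean 5mC over 40698 CpGs was 28.1% and 33.1% in the oxBS libraries of shScr. The oxBS libraries of shTet3 had 23.4% and 23.6%. The groups did not overlap, and the control replicates were farther apart than the knockdown replicates. The means were 30.6% ± 3.52 in shScr and 23.5% ± 0.16 in shTet3 (SD, n = 2 each), a difference of −7.06 percentage points (two-sided exact permutation test, p = 0.333, the smallest that 2 against 2 allows). Without shScr replicate 1 the difference was −9.55 and without shScr replicate 2 it was −4.57.

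In the BS libraries the mean over 40266 CpGs was 27.5% and 32.1% in shScr against 22.6% and 22.9% in shTet3. The difference was −7.03 percentage points (exact permutation test, p = 0.333, again the smallest possible), so that BS and oxBS libraries moved by nearly the same amount. Without shScr replicate 1 it was −9.34, and read-weighted it was −4.13.

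Chromosome 8 did not stand out in this change. Its difference in oxBS was 9th from the lowest of 19 autosomes, between −7.48 on chromosome 18 and −5.89 on chromosome 11. Within each library its mean 5mC exceeded that of the other autosomes by 0.96 and 0.86 percentage points in shScr and by 0.81 and 0.79 in shTet3. This excess was 0.11 lower in shTet3 (exact permutation test, p = 0.333, the smallest possible), and 0.058 lower without shScr replicate 1. Divided as methylated calls over all calls, it was 0.19 higher (exact permutation test, p = 0.667), and with a minimum coverage of 20 the change was −0.015, so its direction depended on the summary. The gap of 4.98 percentage points between the shScr replicates on chromosome 8 lay within the 4.28 to 5.68 of the other autosomes.

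**Figure D5:**
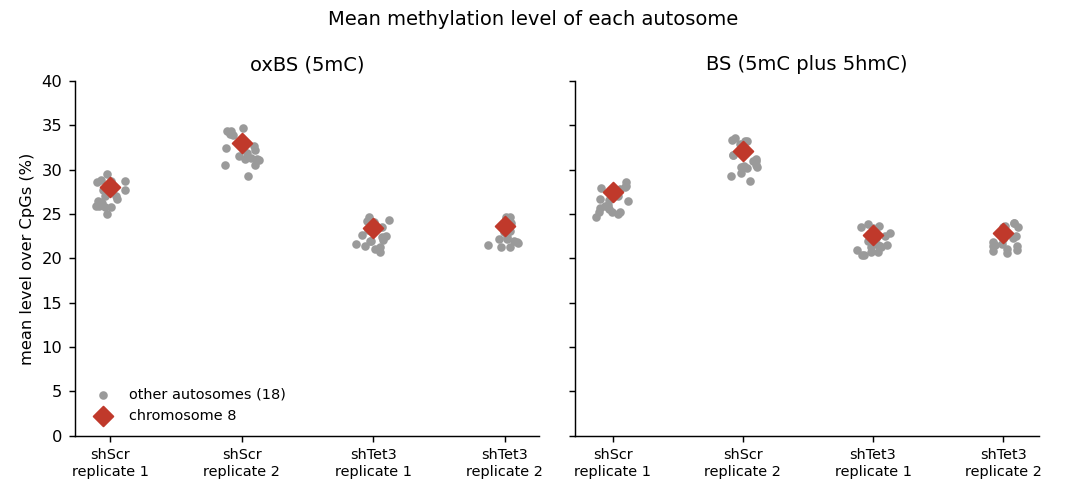
Mean methylation level over CpGs (y axis, percent, from 0) of each autosome in the 4 oxBS libraries (left) and 4 BS libraries (right). Chromosome 8 (red), at 28.1%, 33.1%, 23.4% and 23.6% in oxBS, lies among the other 18 autosomes (grey) in every library.

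In percentage points, the difference in 5mC was smallest in promoters, on chromosome 8 as on the other autosomes. Promoters were already low in shScr, so this order does not compare how readily 5mC was lost. In promoters, mean 5mC was 4.04% and 4.89% in shScr and 3.28% and 3.48% in shTet3, a difference of −1.09 against −1.15 on the other autosomes. In genes outside promoters it was 48.5% and 56.5% against 41.1% and 41.7%, a difference of −11.2 (−11.1 elsewhere). Between genes it was 48.4% and 58.0% against 39.2% and 38.6%, a difference of −14.3 (−14.0 elsewhere). By the level in the shScr BS libraries, CpGs under 10% differed by −0.18 percentage points, those of 10 to 40% by −6.30, those of 40 to 70% by −17.3 and those of 70% and over by −16.4. The differences without shScr replicate 1 were −1.51 in promoters, −15.2 in genes outside them and −19.1 between genes, and without shScr replicate 2 they were −0.66, −7.18 and −9.49.

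In 112 windows of 1 Mb with at least 20 CpGs, the difference in 5mC ran from −23.4 to −0.56 percentage points with a median of −7.56 (−7.40 on the other autosomes). Both knockdown libraries were lower than both controls in 109 windows (97.3%), where 96.8% of the windows of all autosomes did so. This held in 112 windows (99.9% of all) without shScr replicate 1, with a median of −9.62, and without shScr replicate 2 in 109 with a median of −4.77. The window with the largest loss was chr8:29000001-30000000 (45 CpGs), with 62.8% and 79.5% in shScr against 49.4% and 46.2% in shTet3. The least change was at chr8:20000001-21000000 (40 CpGs), the window with the highest coverage shift in shScr, with 0.88% and 4.51% in shScr against 1.40% and 2.86% in shTet3.
Over the 112 windows the GC-adjusted coverage shift of shScr had r = 0.40 with the change of 5mC and r = −0.35 with the 5mC gap between the shScr replicates. The change of 5mC itself had r = 0.87 with GC content and r = −0.92 with the 5mC of shScr. The windows share libraries, depth and base composition, and the 5mC of shScr enters the change itself, so these values are descriptions.

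Single CpGs were compared by logistic regression of methylated and unmethylated calls with a likelihood ratio test, with Benjamini-Hochberg adjustment over all 662455 CpGs of the genome tested in oxBS. Differentially methylated positions (DMPs) had a *q* value below 0.01 and a difference over 10 percentage points. On chromosome 8, 5773 of 40698 CpGs (14.2%) were hypo-DMPs, lower in shTet3, where 13.9% of all CpGs tested were. Their median difference was −24.5 percentage points, and at 92.7% of them the replicates of the groups did not overlap. Hyper-DMPs, higher in shTet3, numbered 36 (0.0885%, against 0.0814% of all CpGs), and the groups did not overlap at 52.8% of them. Both shares without overlap are of CpGs called in these same libraries, and the share over all CpGs tested is not given. Without shScr replicate 1 there were 7149 hypo-DMPs and 54 hyper-DMPs, and without shScr replicate 2 there were 2662 and 156. Without shTet3 replicate 1 there were 3613 and 26, and without shTet3 replicate 2 there were 4156 and 70. Over all CpGs tested, the shares of hypo-DMPs and hyper-DMPs moved in the same direction as on chromosome 8 in each of these cases. An F test that allows for overdispersion between replicates called 0 CpGs in either direction. With 2 replicates per group it has few residual degrees of freedom. Its p thus hardly falls low enough for a *q* value below 0.01 over 662455 CpGs. Its 0 calls therefore cannot tell whether the DMPs exceed the spread between replicates. Of the 40698 CpGs, 867 were lower and 1 higher at an unadjusted p of this test under 0.05 and a difference over 10 percentage points. The share over all CpGs tested is not given for these counts, so they do not compare chromosome 8 with the genome.

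The BS libraries gave similar counts on chromosome 8, with 5742 CpGs lower in shTet3 (14.3%, against 13.8% of all CpGs) and 21 higher (0.0522%, against 0.0621%). Without shScr replicate 1 the lower CpGs numbered 7155, without shScr replicate 2 they numbered 2292, and without shTet3 replicate 1 they numbered 3448. The F test called 0 of them, under the same limit, with 746 lower and 2 higher at an unadjusted p under 0.05 and a difference over 10 percentage points. For these counts too, the share over all CpGs tested is not given. Of 5462 hypo-DMPs covered in BS, 5274 (96.6%) were lower there too, where 54.7% of all CpGs of chromosome 8 tested were, and 2693 were called. Of 33 hyper-DMPs covered in BS, 22 (66.7%) were higher there, where 13.6% of all CpGs of chromosome 8 tested were, and 2 were called. BS and oxBS share their DNA, so this is not an independent check of the calls. Of the CpGs of chromosome 8 classed by their shScr BS level, 54.8% were under 10%. Such CpGs had little to lose, so the shares over all CpGs tested are not a matched background. Within shScr, BS exceeded oxBS at 128 CpGs of chromosome 8 (0.328%, against 0.33% of all CpGs) and lay below it, which 5hmC cannot give, at 58 (0.149%, against 0.17%). Both counts rested on replicate 1, with 2 above and 1 below in replicate 2 alone and 259 and 156 in replicate 1 alone, which compare single libraries. The F test called 0 of these, under the same limit, with 14 CpGs above and 8 below at an unadjusted p under 0.05 and a difference over 10 percentage points. Mean BS on chromosome 8 lay below mean oxBS in all 4 DNA samples, over partly different CpGs. In shScr it was 27.5% against 28.1% and 32.1% against 33.1%, and in shTet3 22.6% against 23.4% and 22.9% against 23.6%. The counts above and below are therefore no measure of 5hmC.

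Hypo-DMPs made up a smaller share of promoter CpGs than of other CpGs. A call needs a difference over 10 percentage points, and mean 5mC in promoters was 4.04% and 4.89% in shScr. The low level of promoters thus left little room for calls, so these shares do not compare how readily 5mC was lost. They made up 1.97% of promoter CpGs (369 of 18695), 22.8% of CpGs in genes outside promoters (3477 of 15222) and 28.4% of intergenic CpGs (1927 of 6781). On the other autosomes these shares were 2.00%, 23.2% and 27.7%. On chromosome 8 they were 2.64%, 28.2% and 34.9% without shScr replicate 1 and 1.37%, 10.3% and 12.3% without shScr replicate 2, and without shTet3 replicate 1 they were 1.06%, 13.9% and 19.1%. The intergenic share was 18.6% without shTet3 replicate 2. Of the 36 hyper-DMPs, 25 were in genes outside promoters, 6 were intergenic and 5 in promoters.

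The CpGs printed above had few calls behind them, and some of their BS values rest on under 10 calls. At the hypo-DMP 380299 bases from *Aga*, 5mC was 76.5% of 17 calls and 85% of 20 in shScr (95% Wilson intervals 52.7 to 90.4 and 64.0 to 94.8), and 20% of 10 and 6.67% of 15 in shTet3 (5.67 to 51.0 and 1.19 to 29.8). The pooled difference was −69.1 percentage points (*q* = 1.115e-06, likelihood ratio test with Benjamini-Hochberg adjustment). In the BS libraries it was 38.9% and 66.7% in shScr against 36.4% and 0% in shTet3, the last from 5 calls.
In the coding exon of *Arhgef10*, 5mC was 100% of 18 calls and 100% of 11 in shScr (82.4 to 100 and 74.1 to 100) and 29.7% of 64 and 38.9% of 18 in shTet3 (19.9 to 41.8 and 20.3 to 61.4). The BS libraries did not show this drop, with 72% and 80% in shScr against 73.0% and 70% in shTet3.
The CpG 22766 bases from *Hand2*, a transcription factor gene of heart and limb development, had 78.6% of 14 calls and 100% of 11 in shScr (52.4 to 92.4 and 74.1 to 100) and 15.8% of 19 and 30.8% of 13 in shTet3 (5.52 to 37.6 and 12.7 to 57.6). In BS it was 89.5% and 100% in shScr and 76.9% and 60% in shTet3, lower in the knockdown as well.

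Among the hyper-DMPs, the CpG in an intron of *Mcph1*, a gene of DNA repair and brain size, and of *Angpt2*, which encodes a ligand of the vessel receptor TIE2, had 0% of 11 calls (which allows up to 27.3%) and 15.8% of 19 in shScr (interval of the second 5.52 to 37.6). In shTet3 it had 31.8% of 22 calls and 51.7% of 29 (16.4 to 52.7 and 34.4 to 68.6). In BS the groups overlapped, with 13.8% and 42.9% in shScr against 40.7% and 22.5% in shTet3.
The intronic CpG of *Pkd1l2*, a polycystin family gene, had 48.8% of 41 calls and 59.1% of 22 in shScr (34.3 to 63.5 and 38.7 to 76.7) and 82.1% of 39 and 76.2% of 21 in shTet3 (67.3 to 91.0 and 54.9 to 89.4). The BS libraries went the other way, with 75.9% and 88.9% in shScr against 65.5% and 60% in shTet3.
The intergenic CpG 350565 bases from *Wrn*, a RecQ helicase gene, had 0% of 10 and of 12 calls in shScr (which allow up to 30% and 25%) and 34.8% of 23 and 17.6% of 17 in shTet3 (18.8 to 55.1 and 6.19 to 41.0). In BS it was 0% and 12.5% in shScr and 4.76% and 5% in shTet3. At none of these 3 CpGs were both shTet3 BS libraries above both shScr BS libraries.

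Promoters (from 1 kb before to 0.5 kb after a start site) of 704 protein-coding genes on chromosome 8 held at least 3 tested CpGs, and 571 of them had less than 10% 5mC in shScr. A hypo-DMP was found in 138 promoters (19.6%, against 19.2% of promoters of all chromosomes), 3 or more in 50 (7.10%, against 6.66%) and a hyper-DMP in 5 (0.710%, against 0.947%). The median difference over the 704 promoters was −0.095 percentage points. The 3 counts without shScr replicate 1 were 159, 67 and 6 (22.1%, 9.08% and 1.03% of all promoters), and without shScr replicate 2 they were 102, 32 and 17. Without shTet3 replicate 1 they were 93, 28 and 4, and 12 promoters held a hyper-DMP without shTet3 replicate 2. Over the promoters of all chromosomes, the 3 shares moved in the same direction as these counts in each case. With all libraries, no promoter of chromosome 8 held 2 or more hyper-DMPs. Those with 1 included *Gsr*, *Htra4*, *Rnf150* and *Slc5a5*, named after their values were seen. Their mean 5mC changed by 0.67, −0.66, 0.48 and −5.25 percentage points in this order, and *Slc5a5* also held 4 hypo-DMPs. Among these named genes, both shTet3 replicates lay above both controls only in *Rnf150*.

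The promoter of *Marveld3*, which encodes a tight junction protein (gene at chr8:112471814-112486103), had the most hypo-DMPs, 11 of 49 CpGs. Mean 5mC there was 22.2% and 19.6% in the controls and 11.96% and 18.95% after knockdown, so the second replicates nearly met.
*Crispld2*, which encodes a secreted cysteine-rich protein (chr8:122516338-122576693), had 10 hypo-DMPs among 18 CpGs, with 43.4% and 37.9% in shScr against 18.6% and 26.1% in shTet3. Its groups did not overlap and differed by 18.2 percentage points on average.
*Mcf2l* (chr8:12873806-13020905) had 9 of 35, with 36.6% and 48.5% in shScr against 28.4% and 28.9% in shTet3. *Zcchc14*, a zinc finger gene (chr8:124122603-124176801), had 9 of 97, with 6.63% and 10.6% against 4.53% and 5.55%. *Fam155a*, which encodes an auxiliary subunit of a sodium leak channel (chr8:9207238-9771018), had 8 of 53, with 17.3% and 16.1% against 11.5% and 8.04%. In all of these the shTet3 replicates lay below both shScr replicates, which also held in 169 of the 704 measured promoters. These promoters were picked for their hypo-DMPs in the same libraries.

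Of 15 neural genes listed for chromosome 8, 10 had a measured promoter, 6 of these held a hypo-DMP and 0 a hyper-DMP, with 15 hypo-DMPs among 356 CpGs and a median difference of −2.19 percentage points. Over all measured promoters of chromosome 8, 19.6% held a hypo-DMP and the median difference was −0.095. The list is small and was described by these counts alone. Leaving out each replicate gave 5 or 6 genes with a hypo-DMP, of which *Nfix*, *Csmd1* and *Cx3cl1* were in every set. *Nrg1* was not called without shScr replicate 1, where *Cacna1a* was, nor without shTet3 replicate 1. *Disc1* was also not called without shTet3 replicate 1, and *Cntnap4* was not called without shScr replicate 2 or shTet3 replicate 1. *Tubb3* was called without shScr replicate 2 or shTet3 replicate 1, and *Fgfr1* without shTet3 replicate 1. *Nfix*, a transcription factor gene of neural stem cells, had 6 of 82 CpGs, with 6.19% and 4.75% in shScr against 4.50% and 3.31% in shTet3. *Csmd1*, which encodes a complement regulator of the brain, had 3 of 27, with 10.7% and 9.13% against 5.77% and 3.69%. *Cntnap4*, a neurexin family gene, had 1 of only 3 CpGs, with 56.0% and 78.9% against 43.0% and 34.8%. *Disc1* and *Cx3cl1* had 2 hypo-DMPs each and *Nrg1* had 1. The promoter of *Tubb3*, the neuronal tubulin gene, held 0 DMPs among 24 CpGs, with 6.57% and 3.08% in shScr against 3.75% and 2.54% in shTet3, and that of *Fgfr1*, a growth factor receptor gene, held 0 among 60.

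The same background of 19.6% and −0.095 applies to the lists that follow. Both pluripotency genes were measured and held 0 DMPs, with a median difference of −4.51. *Zfp42* held a hypo-DMP without shScr replicate 1, and without shScr replicate 2 *Klf2* held a hypo-DMP and 1 of both genes a hyper-DMP. *Zfp42* had 29.7% and 57.5% in shScr against 38.5% and 32.2% in shTet3 over 8 CpGs. The groups overlapped, and the control replicates differed more than the groups did. *Klf2*, a transcription factor gene of naive pluripotency, had 0.20% to 2.28% in the 4 libraries.
Of 14 transcription factor genes, 12 were measured and 2 held hypo-DMPs, with a median difference of −0.093. *Irx6* had 4 of 22 CpGs, with 29.98% and 21.6% in shScr against 16.1% and 21.4% in shTet3, and *Pou4f2*, a gene of sensory neuron development, had 1 of 43. None of the 12 held a hypo-DMP without shScr replicate 1, and without shTet3 replicate 1 only *Irx6* did. Of 8 adhesion and signalling genes, 7 were measured and 2 held hypo-DMPs (median difference −0.91). The atypical cadherin gene *Fat1* had 7 of 23 CpGs, with 83.5% and 93.9% in shScr against 79.3% and 85% in shTet3, which overlapped, and *Cdh1* (E-cadherin) had 1 of 33. Leaving out shScr replicate 1 added *Gas6* and a hyper-DMP in 1 gene, and leaving out shScr replicate 2 or shTet3 replicate 1 added *Cdh11*. The 2 measured of 4 metallothionein genes, *Mt1* and *Mt2*, and both germline genes, *Tex15* and *Syce2*, held 0 DMPs, with median differences of −1.29 and 0.39. *Tex15* held a hypo-DMP without shScr replicate 1, and 1 of the germline genes a hyper-DMP without shTet3 replicate 2.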

How the data were processed

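oxRRBS was measured in 8 libraries. Per the labels and methods, the authors trimmed reads with Trim Galore, aligned them to mm9 with Bismark and used methylKit (versions not given in the sources used here). They deposited, unnormalized for each CpG, the coverage (a count of calls) and what percent was C or T. No listed CpG had under 5 calls in any library, and percent times coverage gave methylated calls that were whole to within 1e-06 of a call. Groups came from the labels.

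From these, CpGs were kept where each library compared had 10 or more calls. Annotation was GENCODE vM1. Statistics were computed in Python 3.11.15 with numpy 2.4.6, scipy 1.17.1 and pandas 2.3.3, and tested on simulated data. The rules for named genes, CpGs and windows were gene lists, the 5 promoters with most hypo-DMPs, promoters with 2 or more hyper-DMPs, the 3 largest DMPs per direction with both replicates beyond the controls, and the 3 highest and lowest windows. The members and lists were chosen with earlier results of these data known. Alternatives were coverage minimums of 5 and 20, scalings, units, GC bins, read-weighted levels, other tests, the replicate block and leaving out each replicate. 1 gene is not named here. Relative shifts, GC-adjusted windows, sample pairs and leaving out replicates for windows, promoters, lists and BS against oxBS were added after seeing the data.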

Additional observations from a re-analysis of the deposited data

How the results depend on the processing

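The coverage shift of chromosome 8 between the shScr replicates (−0.18 on the log2 scale) was −0.38 when libraries were scaled by total calls, −0.21 and −0.13 with coverage minimums of 5 and 20, −0.16 with CpGs as the unit, −0.35 with MspI fragments as the unit and −0.16 within GC bins relative to the other autosomes. It kept its sign in all 11 alternatives, and the causes of the differences were not tested. In shTet3 all 11 alternatives lay between −0.025 and 0.097, within 1 SD of the 0.053 reported.

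The change of the excess of chromosome 8 over the other autosomes reversed to 0.19 when read-weighted and was −0.015 with a minimum of 20, and the BS difference was −4.13 when read-weighted. With the F test 0 hypo-DMPs, 0 hyper-DMPs, 0 CpGs lower in BS and 0 CpGs with BS above oxBS were called. With 2 replicates per group this test hardly reaches a *q* value below 0.01, so these 0 counts do not decide whether the calls hold. The causes of the other changes were not tested. With both replicates required beyond the controls there were 19 hyper-DMPs. Leaving out each replicate gave 2662 to 7149 hypo-DMPs, 26 to 156 hyper-DMPs (70 without shTet3 replicate 2), 2292 to 7155 CpGs lower in BS, and mean differences of −9.55 to −4.57 in oxBS, −9.34 to −4.71 in BS and −0.16 to −0.058 for the excess.

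With the replicate number as a block there were 6026 hypo-DMPs, 38 hyper-DMPs, 6014 CpGs lower in BS and 134 with BS above oxBS. Each count was within 1.5 times of that without the block. The mean differences were −7.06, −7.03 and −0.11, which pairing in a balanced design leaves unchanged by arithmetic, so they are no check. Deviations of same-numbered shScr and shTet3 libraries had r = −0.029 over CpGs of chromosome 8. The labels give such samples the same number, and a low correlation of single CpGs cannot tell whether they shared a culture or batch. Coverage of 10 to 20 limits single CpGs to wide intervals.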
